A study of Homo sapiens with 12 samples.

Results

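The genes described here encode the Mediator complex and its kinase module. They were chosen by name: a guide was taken when the gene written in its library name, after its coordinates and before the strand sign, was one of 33 symbols. The knockout library held 4 guides for each of the 33 genes, so the members made up 33 of 18053 genes and 132 of 71090 guides. The kinase module has 7 genes, CDK8 and CDK19 (paralogous kinases), CCNC (cyclin C, their cyclin partner), MED12 and MED12L, and MED13 and MED13L. The head has 7 (MED6, MED8, MED11, MED17, MED18, MED20 and MED22), the middle 9 (MED1, MED4, MED7, MED9, MED10, MED19, MED21, MED26 and MED31), the scaffold 1 (MED14) and the tail 9 (MED15, MED16, MED23, MED24, MED25, MED27, MED28, MED29 and MED30).

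Mediator is the large complex that carries signals from transcription factors on enhancers to RNA polymerase II at promoters. Its head and middle contact the polymerase, MED14 holds the modules together, and tail subunits such as MED15, MED16, MED23, MED24 and MED25 are docking surfaces for activators. The kinase module binds the core reversibly through MED13, and while it is bound the core cannot take up the polymerase. MED12 switches on the kinase activity of CDK8 or CDK19 with cyclin C.

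The screens asked which knockouts change the growth of cancer cells under a CDK2 inhibitor, INX-315, or a CDK4/6 inhibitor, palbociclib. HCC1806, a triple-negative breast cancer line, and MIA PaCa-2, a pancreatic cancer line, were infected with the TKOv3 lentiviral library, selected with puromycin and grown with drug or with the DMSO vehicle, so control and drug cells all carried the knockout pool. HCC1806 was screened once with INX-315 at 500 nM (1 start library, 2 DMSO libraries and 2 INX-315 libraries) and once with palbociclib at 500 nM (1 library each of start, DMSO and drug), and MIA PaCa-2 was screened with INX-315 at 500 nM and palbociclib at 250 nM against a single shared DMSO library and a single start library. The drug and DMSO libraries are labelled passage 8, the HCC1806 starts passage 0 and the MIA PaCa-2 start passage 1. A second label gives palbociclib as 250 mM in both lines, and the doses used here are those of the treatment protocol. Selection is described in the methods as lasting up to 5 passages, which does not match the passage labels, so the time behind a change from the start is uncertain. The study calls the numbered HCC1806 libraries biological replicates, but no source used here says whether they came from separate infections or cultures, and a p-value measures the spread between those libraries only, which may be technical.

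Each library is a count of sequenced guide amplicons from genomic DNA, with totals between 24946956 and 58875726 counts. Between 2 and 49 of the 132 Mediator guides had under 30 counts in a library, and a guide at 0 allows up to 3 counts, or 0.0510 to 0.120 CPM (counts per 1000000 counts of the library), which covers counting error only. One library stood apart. HCC1806 DMSO 1 correlated with the other 3 drug and DMSO libraries of its screen at r of 0.54 across 71090 guides on the log2 CPM scale, where those 3 correlated with each other at 0.92 to 0.96, and its olfactory receptor genes, which these cells should not need, had a median log2 change of -0.53 from the start against 0.03 in DMSO 2. Calls of the HCC1806 INX-315 screen are therefore given with and without it. As a control, knockout of CDK2, the target of INX-315, scored 5.69 (HCC1806, and 5.51 without DMSO 1) and 6.01 (MIA PaCa-2) with that drug on the normZ scale explained with the drug comparisons.

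Without any drug, guides against MED14 and most of the head were lost from the pool in every DMSO library, guides against the middle and tail were lost in part, and guides against most of the kinase module were kept. The measure is the median, over a gene's 4 guides, of the log2 change in CPM from the start library of the same screen, and a gene is called lost below -1. Of the 33 members, 20 were lost in HCC1806 DMSO 2, 15 in the DMSO library of the HCC1806 palbociclib screen and 9 in MIA PaCa-2 DMSO, against backgrounds of 13.4%, 13.8% and 8.64% of all genes. In HCC1806 DMSO 1 the count was 26 members against a background of 43.6%. There is 1 start library per screen, so these changes carry no test.

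The head was depleted most uniformly. Its median change was -2.18 in DMSO 2, -1.57 in the palbociclib-screen DMSO library and -1.09 in MIA PaCa-2, beside -0.09, -0.08 and -0.04 for all genes. MED18, which pairs with MED20 in the movable jaw of the head, was the lowest head gene in all 3 of these libraries, at -2.69, -2.73 and -2.34. MED11, MED8 and MED6 were also lost in all 3, with changes between -1.09 and -2.26, whereas MED22, the partner of MED11, stayed between -0.87 and -0.25. MED17, the central subunit of the head, was lost in both HCC1806 libraries at -2.32 and -1.21 and stood at -0.59 in MIA PaCa-2. MED20 was also lost in both HCC1806 libraries and not in MIA PaCa-2, with -2.44, -2.46 and -0.95.

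MED14, which spans the core from head to tail, fell to -2.47 in DMSO 2, -3.73 in the palbociclib-screen DMSO library and -1.61 in MIA PaCa-2. It was the lowest of all 33 members in the palbociclib screen. In the middle, MED4 reached -3.20, -1.82 and -1.58 and MED26, a subunit that recruits elongation factors, -2.05, -1.44 and -1.25, and both were lost in all 3 libraries. MED7, which forms the long hinge of the middle with MED21, has 1 guide with at most 1 count in each start library, which cannot show a loss. On its other 3 guides MED7 was at -2.20, -3.52 and -1.21, past -1 in all 3 libraries, where the median over 4 guides was -2.12, -2.71 and -0.69. MED21 itself was past -1 in the palbociclib-screen library alone of the 3, at -1.49. MED1, the main contact of nuclear receptors, was lost in none of them, with changes of -0.82, -0.78 and -0.35, and MED10 and MED19 also stayed above -1 throughout.

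Tail genes were lost mainly in HCC1806. The tail median was -1.51 in DMSO 2, -0.68 in the palbociclib-screen library and -0.23 in MIA PaCa-2, and no tail gene was lost in all 3. MED30 was at -2.72, -2.21 and -0.18 in that order. MED24 stood at -2.47, -1.17 and -0.09. MED27, which also has 1 guide with under 30 counts at each start, was at -1.51, -1.64 and -0.48, and at -1.68, -1.80 and -0.23 on its other 3 guides. MED15, the activator-binding subunit, did not follow this order, with -1.71, -0.56 and -1.60, and was the only tail gene lost in MIA PaCa-2. MED28 was at -0.01, -0.48 and -0.85 and was not lost in any of the 3. Whether the lines differ in these losses was not tested.

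The kinase module had medians of 0.11, 0.20 and 0.09 in the same 3 libraries, and MED12 was its only lost gene, at -2.12 and -1.62 in HCC1806 and -0.40 in MIA PaCa-2. CDK8 was above its start in each, at 1.10, 0.34 and 0.09, and so were CDK19 at 0.38, 0.49 and 0.11 and MED13 at 0.67, 0.48 and 0.10. CCNC stood at -0.59, -0.19 and -0.28, MED13L at -0.32, 0.20 and -0.59, and MED12L at 0.11, -0.83 and 0.30. In DMSO 1 the kinase values were lower for CCNC, at -2.83, and MED13, at -1.24. That library called 3 of the 7 kinase genes lost, where 43.6% of all genes were lost. Leaving DMSO 1 aside, 7 members were lost in all 3 DMSO libraries (MED6, MED8, MED11, MED18, MED4, MED26 and MED14) and 12 in none. On guides with at least 30 start counts MED7 joined them, which made 8, with 12 again in none and with 10 members lost in MIA PaCa-2. The shares of all genes lost in all 3 libraries or in none were not counted, so these joint counts of members have no background. Across the 33 members the changes in HCC1806 DMSO 2 and in the palbociclib-screen DMSO library, which have separate start libraries, had an r of 0.79, and across all 18053 genes 0.80, both given as descriptions of libraries built from the same guide set.

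**Figure D1:**
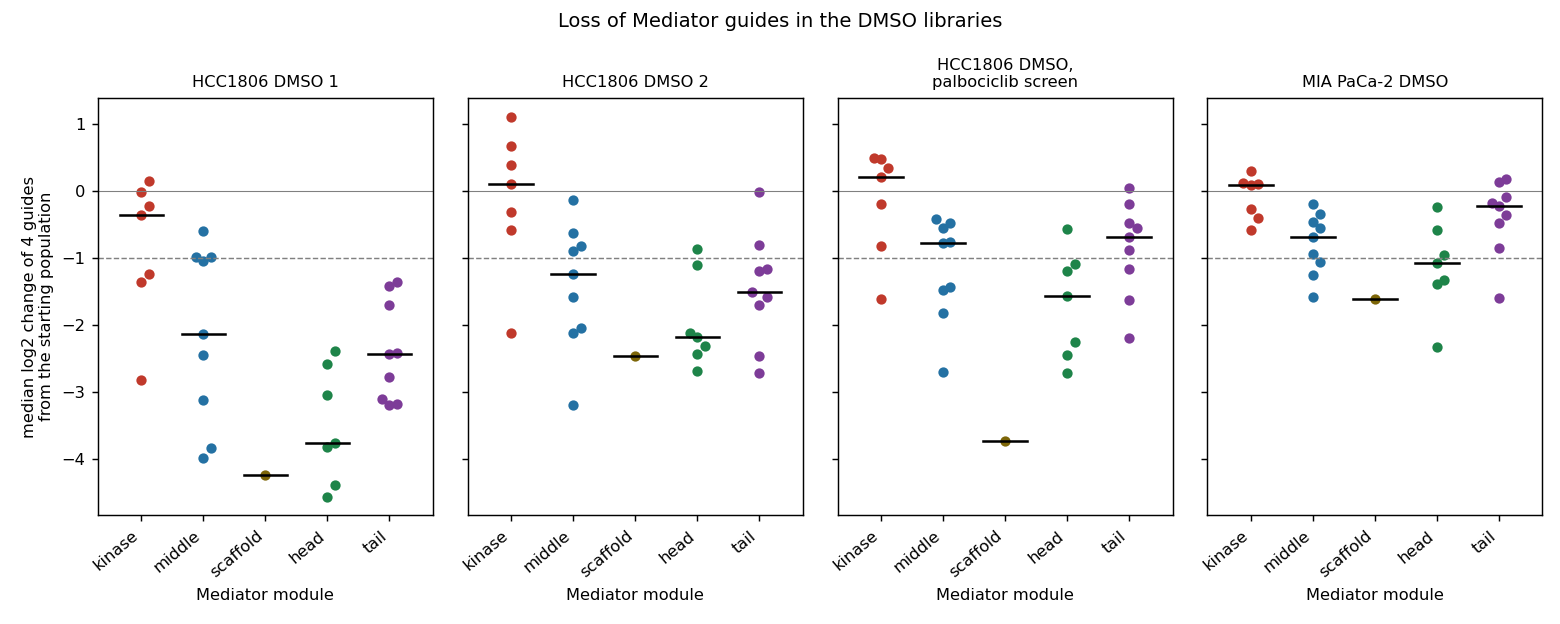
Median log2 change of each Mediator gene's 4 guides from the start library of its screen (vertical axis), by module, in the 4 DMSO libraries, with 1 point a gene, a black line at the module median and a dashed line at -1. Kinase genes cluster near 0 with MED12 lowest in the HCC1806 libraries other than DMSO 1, the head and MED14 have the lowest medians, and DMSO 1 is shifted down for every module.

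Under INX-315 in HCC1806, guides against CDK8 and CCNC were depleted far beyond the rest of the complex. The score is the normZ of DrugZ, a sum over a gene's guides of each guide's log2 ratio of drug to DMSO divided by the spread of guides with like control counts, standardised over all genes, and a gene is called below -2 or above 2. Of the 33 members, 5 were called lower (CDK8 at -6.46, CCNC at -5.28, MED1 at -2.76, MED15 at -2.23 and MED13L at -2.14) and 0 higher, where 2.77% of all genes were called lower and 1.45% higher. Without DMSO 1 there were 7 called lower (CDK8, CCNC, MED1, MED15, MED10, MED11 and MED18), against 2.7% of all genes, and without DMSO 2 there were 2 (CDK8 and MED1), against 2.94%. In these DrugZ runs without a DMSO library, the DMSO library that was kept served as the control of both INX-315 libraries. With all 4 libraries, 3 of the 7 kinase genes were called lower, and of the other 26 members 2 were. By module the median normZ was -1.91 for the kinase module, -0.78 for the middle, -0.60 for the tail and -0.57 for the head, beside 0.04 for all genes. Below 0 were 26 of the 33 members, beside 8720 of 18053 genes, and this tally is given with DMSO 1 included only. No head gene was called with all 4 libraries, with scores from -1.35 for MED18 to 1.04 for MED20, and MED14 scored 0.60.

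**Figure D2:**
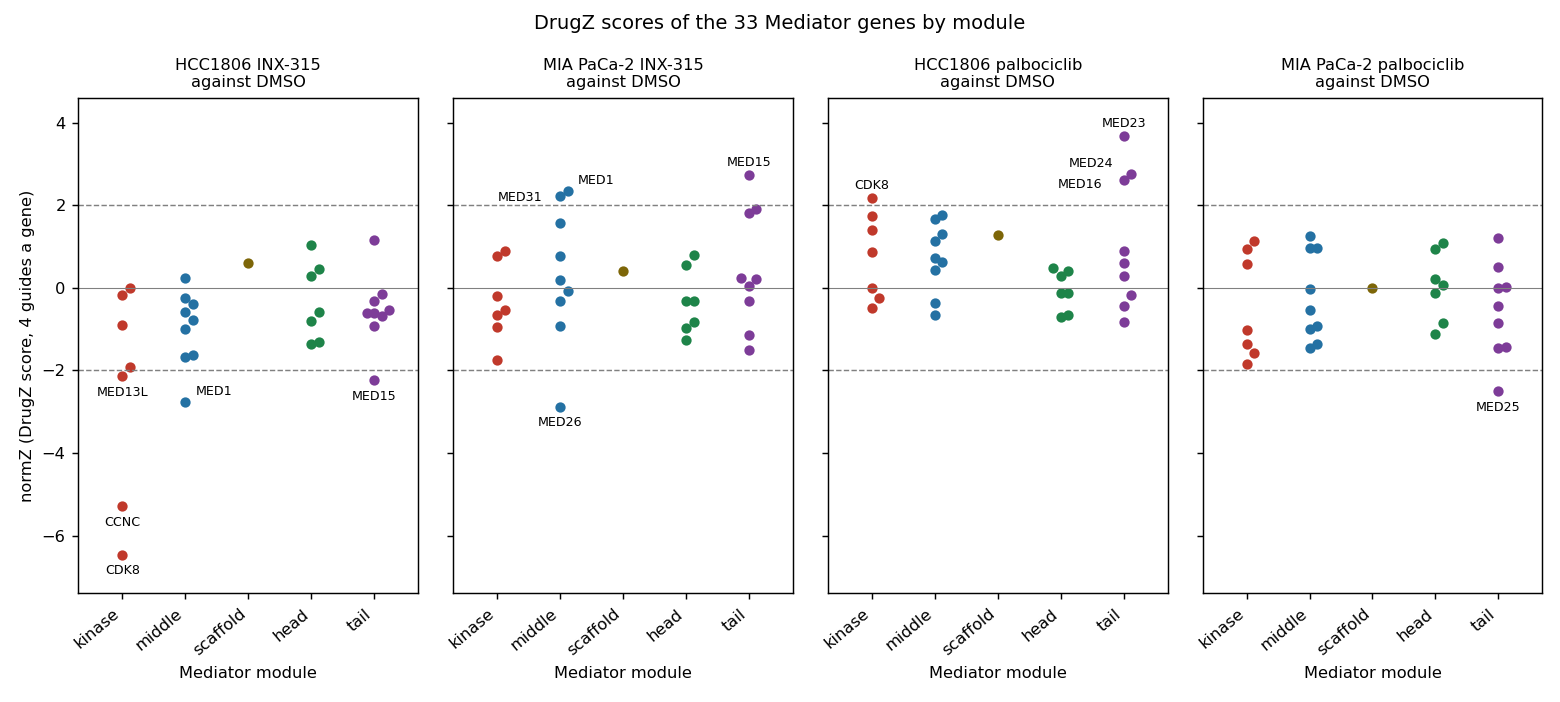
DrugZ normZ (vertical axis) of the 33 Mediator genes by module in the 4 comparisons of a drug with DMSO, with 1 point a gene and dashed lines at -2 and 2, and with the genes past them named. CDK8 and CCNC stand alone at -6.46 and -5.28 with INX-315 in HCC1806, and the tail genes MED23, MED24 and MED16 are the highest members with palbociclib in HCC1806.

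CDK8 guides are named in the library on chromosome 13, at 26828845, 26923316, 26927915 and 26967626, in a genome build that no source used here gives. In that order they had 206, 78, 537 and 368 counts at the start, 128, 238, 534 and 149 in DMSO 1, 305, 235, 661 and 1005 in DMSO 2, 22, 3, 329 and 89 in INX-315 library 1 and 16, 8, 247 and 152 in INX-315 library 2. The guides at 26828845 and 26923316 were nearly gone, the guide at 26927915 was down by less, and the guide at 26967626 overlapped between DMSO 1 and INX-315 library 2. Summed over the 4 guides, CDK8 stood at 35.6 and 77.0 CPM in DMSO and at 17.0 and 17.0 CPM with INX-315, from 37.8 CPM at the start. The groups did not overlap, and both INX-315 libraries were under the start while DMSO 2 was above it. The share of all genes with sums that did not overlap was not counted. The sums of CDK19 and MED12L, which were not called, did not overlap either. The log2 ratio averaged over the 4 guides was -2.12 ± 1.22 (SD over guides), CDK8 ranked 7 of 18053 genes from the lowest, and its DrugZ adjusted p was 1.38e-07, which takes guides and not libraries as the replicates.

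CCNC guides are named from 99994324 to 100016374 of chromosome 6. From the lowest coordinate they had 290, 750, 576 and 239 counts at the start, 4, 107, 613 and 13 in DMSO 1, 330, 307, 504 and 33 in DMSO 2, 12, 11, 164 and 0 in INX-315 library 1 and 26, 11, 155 and 2 in INX-315 library 2. All 4 guides were lower with INX-315 than in DMSO 2, and the guide at 99994324 was lowest in DMSO 1. Their sum was 24.99 and 41.0 CPM in DMSO and 7.19 and 7.78 CPM with INX-315, against 59.0 CPM at the start. These groups did not overlap, again with no share of all genes counted. The mean log2 ratio was -1.70 ± 0.80 (SD over guides), the rank 15 from the lowest and the DrugZ adjusted p 7.61e-05.

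CDK8 and CCNC were the members past an adjusted p of 0.05 by DrugZ, with 0.249% of all genes called lower and 0.0111% higher by that rule and 0 members higher. The highest member was MED23 at a normZ of 1.16. The adjusted calls were lost without DMSO 2. Without DMSO 1, with DMSO 2 as the control of both INX-315 libraries, the normZ was -9.09 for CDK8 and -8.12 for CCNC. On the single pair of DMSO 2 and INX-315 library 2 it was -8.53 and -7.49. Without DMSO 2, with DMSO 1 as the control of both, the normZ was -2.64 for CDK8 and -1.79 for CCNC. On the single pair of DMSO 1 and INX-315 library 1 it was -2.72 and -1.88. No p is printed for these runs, since each rests on 1 DMSO library.

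**Figure D3:**
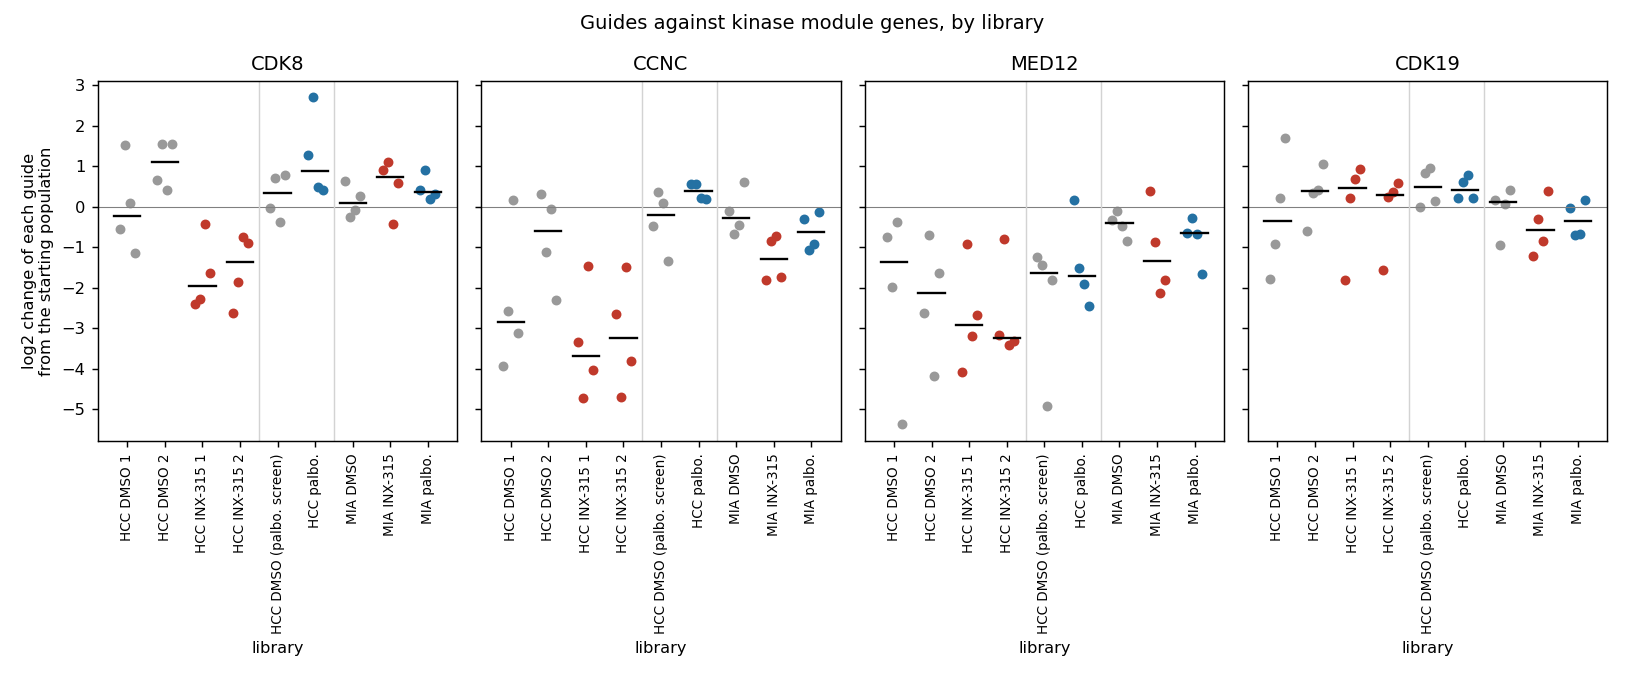
Log2 change in CPM of each guide from its screen's start library (vertical axis) for CDK8, CCNC, MED12 and CDK19 in 9 libraries, with 1 point a guide, a black line at the median of 4 guides, DMSO in grey, INX-315 in red and palbociclib in blue (HCC is HCC1806, MIA is MIA PaCa-2, palbo. is palbociclib). CDK8 medians are -1.96 and -1.38 in the HCC1806 INX-315 libraries and above 0 in each MIA PaCa-2 library, and CDK19 stays between -0.58 and 0.49 in all 9.

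The remaining kinase genes split. MED13L, one of the alternative subunits that link the module to the core, had 727, 191, 221 and 379 counts in DMSO 1, 162, 604, 101 and 484 in DMSO 2, 131, 161, 52 and 633 in INX-315 library 1 and 134, 175, 45 and 461 in library 2. Its guides summed to 51.5 and 47.1 CPM in DMSO and 37.6 and 32.7 CPM with INX-315, with 3 of 4 guides lower on average and a mean log2 ratio of -0.66 ± 0.80 (SD over guides). Its normZ of -2.14 was just past the threshold and fell inside it without either DMSO library, at -1.71 and -1.68. MED12, the activator of the kinase, had a normZ of -1.91 and sums of 21.7 and 20.3 CPM in DMSO against 14.9 and 14.8 CPM with INX-315. These 2 genes sat on either side of the threshold with similar sizes of change.

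The paralogs CDK19, MED12L and MED13 did not pass. CDK19 scored -0.91, with 80.1 and 82.3 CPM in DMSO and 76.5 and 66.3 CPM with INX-315. MED13 scored 0.00 and MED12L -0.17. The MED13 score joins 2 pairs that went opposite ways. Its mean log2 ratio was 1.67 against DMSO 1, with 1 guide lower, and -0.49 against DMSO 2, with all 4 guides lower. CDK8 and CDK19 can each pair with cyclin C. In this screen CCNC and CDK8 were called lower and CDK19 was not. The mean log2 ratio of CDK19 was 0.21 against DMSO 1, with 2 guides lower, and -0.39 against DMSO 2, with all 4 guides lower. The order was different with INX-315 in MIA PaCa-2, where CCNC scored -1.74, CDK19 -0.54 and CDK8 0.90, none of them called. Which kinase goes with CCNC was not tested.

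Outside the kinase module, MED1 and MED15 were called lower. The MED1 guides, on chromosome 17 from 37579641 to 37596707, had 239, 98, 546 and 170 counts in DMSO 1, 336, 574, 76 and 29 in DMSO 2, 57, 289, 29 and 64 in INX-315 library 1 and 93, 352, 23 and 49 in library 2. The 2 DMSO libraries disagreed widely guide by guide, although their sums of 35.7 and 35.4 CPM were alike and both above the 16.9 and 20.7 CPM of the INX-315 libraries. MED1 had a mean log2 ratio of -0.90 ± 1.32 (SD over guides) and a DrugZ adjusted p of 0.392. It was called without either DMSO library, at -2.36 without DMSO 1 and -2.18 without DMSO 2.

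The MED15 guides, on chromosome 22 from 20862009 to 20909293, had 342, 314, 5 and 80 counts in DMSO 1, 183, 117, 48 and 272 in DMSO 2, 97, 28, 36 and 263 in INX-315 library 1 and 65, 39, 17 and 184 in library 2. The guides at 20862009 and 20891470 were lower with INX-315 than in either DMSO library, and those at 20905722 and 20909274 overlapped. The sums were 25.1 and 21.6 CPM in DMSO and 16.3 and 12.2 CPM with INX-315. Its DrugZ adjusted p was 0.706, and the normZ was -2.21 without DMSO 1 and -1.37 without DMSO 2.

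With libraries as the replicates, a quasi-likelihood test in edgeR on the summed counts called 0 of 33 members lower and 0 higher, with a background of 0% of 18018 genes in each direction. At an unadjusted p under 0.05 it put 3 members lower and 0 higher, beside 352 and 105 of all 18018 genes. DESeq2 called 1 member lower (CCNC, with an adjusted p of 0.00392) and 0 higher, beside 29 and 0 of 18048 genes. The 3 members past the unadjusted p in edgeR were CCNC, with a log2 fold change of -2.24 (SE 0.39, edgeR adjusted p = 0.745), CDK8 at -1.81 (SE 0.40, edgeR adjusted p = 0.745) and MED1 at -1.04 (SE 0.31, edgeR adjusted p = 0.745). Without DMSO 1, where the lone DMSO library is assumed to vary like the INX-315 pair, edgeR called 9 members lower and 0 higher (CDK8, CCNC, MED13, MED1, MED10, MED11, MED18, MED28 and MED29), against 8.49% of all genes lower and 6.87% higher. CDK8 was then at -2.19 (SE 0.17, edgeR adjusted p = 4.95e-36) and CCNC at -2.46 (SE 0.23, edgeR adjusted p = 4.14e-23).

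In MIA PaCa-2, INX-315 gave a different set. There is 1 library a group, so the scores describe these libraries and have no p. MED15 at 2.74, MED1 at 2.35 and MED31 at 2.24 were called higher and MED26 at -2.87 was called lower, so 3 of 33 members were higher and 1 lower, where 1.63% of all genes were higher and 2.85% lower. The module medians were -0.54 for the kinase module, -0.32 for the head, 0.19 for the middle and 0.22 for the tail, beside 0.04 for all genes.

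The counts of MED15 in MIA PaCa-2 were 1167, 236, 299 and 117 in DMSO and 1417, 1223, 400 and 714 with INX-315, in order of coordinate. Every guide was higher with INX-315, most clearly those at 20891470 and 20909274. The sum was 30.9 CPM in DMSO and 76.4 CPM with INX-315, against 59.4 CPM at the start, and the mean log2 ratio was 1.56 ± 1.14 (SD over guides). MED15 ranked 35 of 18053 from the highest.

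MED1 had 667, 811, 480 and 432 counts in DMSO and 1675, 1387, 512 and 1195 with INX-315. Again every guide was higher, with a sum of 40.6 CPM in DMSO and 97.0 CPM with the drug and a mean log2 ratio of 1.14 ± 0.61 (SD over guides). MED31, a small middle subunit with guides on chromosome 17 from 6547927 to 6554849, had 67, 569, 443 and 2091 counts in DMSO and 350, 1148, 1337 and 1439 with INX-315. In MED31 3 guides were higher and the most abundant one was lower, and its sums were 53.8 CPM and 86.9 CPM.

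MED26, with guides on chromosome 19 from 16687815 to 16689224, went the other way. Its counts were 185, 413, 146 and 426 in DMSO and 22, 8, 124 and 47 with INX-315, so that 3 guides were far lower and the guide at 16689164 was level after scaling. The sum was 19.9 CPM in DMSO and 4.09 CPM with INX-315, a 4.86-fold difference between these libraries, and the median change from the start of -3.43 was the lowest of any member in that library. MED26 was lower in HCC1806 as well, at -1.68, but not called.

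No gene of the kinase module passed in MIA PaCa-2. CDK8 scored 0.90, with 3 of 4 guides higher and sums of 44.7 CPM in DMSO and 49.6 CPM with INX-315. CCNC scored -1.74 with all 4 guides lower, at 528, 868, 758 and 845 counts in DMSO and 118, 641, 518 and 121 with INX-315, with sums of 50.9 and 28.4 CPM. MED12 scored -0.94, MED13 -0.65, CDK19 -0.54, MED13L -0.20 and MED12L 0.77.

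**Figure D4:**
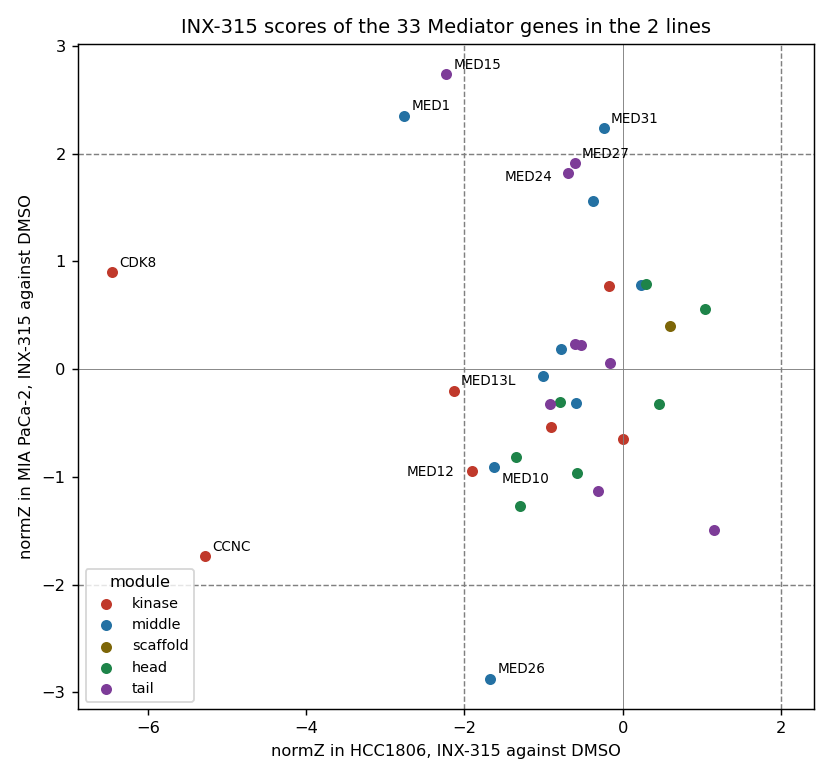
DrugZ normZ with INX-315 against DMSO in HCC1806 (horizontal axis) and in MIA PaCa-2 (vertical axis) for the 33 Mediator genes, coloured by module, with dashed lines at -2 and 2. CDK8 and CCNC lie far left, between -2 and 2 on the vertical axis, and MED1 and MED15 sit at the upper left, below -2 in HCC1806 and above 2 in MIA PaCa-2.

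The difference between lines was tested as a line by drug term in edgeR, in which the single MIA PaCa-2 libraries are assumed to vary like those of HCC1806 and in which line and screen cannot be told apart. It called 0 members in either direction, with a background of 0% of 18050 genes, and DESeq2 also called 0. At an unadjusted p under 0.05, 4 members were more negative in HCC1806 and 0 more positive by either tool, beside 231 and 202 of 18050 genes by edgeR and 341 and 209 by DESeq2. By edgeR these were MED1, with a difference of -2.34 (SE 0.49), MED15 at -2.19 (SE 0.62), MED27 at -2.86 (SE 0.89) and CDK8 at -1.998 (SE 0.68), all on the log2 scale and all with an edgeR adjusted p of 0.948. The correlation of normZ between the lines over the 33 members was 0.03, and over all genes 0.05, with 18 members of the same sign and 15 of opposite sign.

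With palbociclib in HCC1806, a group of tail genes scored highest. MED23 at 3.68, MED24 at 2.75 and MED16 at 2.60, with CDK8 at 2.17, were called higher and no member was called lower, where 1.99% of all genes were higher and 2.54% lower. Of the 9 tail genes 3 were called, and the tail median was 0.60 beside 0.01 for all genes, with the kinase module at 0.86, the middle at 0.72 and the head at -0.12. MED16, MED23 and MED24 sit next to each other in the tail. These are single libraries, so there is no p.

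MED23, with guides on chromosome 6 from 131931295 to 131941790, had 302, 463, 582 and 502 counts in DMSO and 549, 1201, 1675 and 1062 with palbociclib. All 4 guides were higher by similar amounts, with a mean log2 ratio of 1.15 ± 0.30 (SD over guides), and the sum was 53.3 CPM in DMSO, 127 CPM with the drug and 88.0 CPM at the start. MED23 ranked 19 from the highest of 18053 genes and stayed past a normZ of 3.

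MED24, on chromosome 17 from 38189622 to 38209745, had 637, 261, 61 and 209 counts in DMSO and 566, 312, 841 and 910 with palbociclib, so that the guides at 38209557 and 38209726 carried the score and the mean log2 ratio of 1.36 had an SD of 1.67 over guides. MED16, on chromosome 19 from 885845 to 891006, had 204, 711, 340 and 370 counts in DMSO and 488, 1457, 992 and 336 with palbociclib, with 3 guides higher and 1 slightly lower after scaling. In DMSO and with palbociclib the sums were 33.7 and 74.4 CPM for MED24 and 46.9 and 92.6 CPM for MED16. From the start, the median changes in DMSO and with palbociclib were -0.68 and 0.46 for MED23, -1.17 and 0.28 for MED24 and -0.20 and 0.60 for MED16, so the 3 genes were below their start in DMSO and above it with the drug.

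The other tail genes did not follow. MED25, which binds activators at the edge of the tail, scored 0.28, MED15 0.89, MED27 0.60, MED28 -0.17, MED30 -0.45 and MED29 -0.83. In the same line with INX-315, which has its own start and DMSO libraries, MED23 scored 1.16, MED24 -0.69 and MED16 -0.31. With palbociclib in MIA PaCa-2 the scores were -0.43, 0.03 and -1.45. The differences between these comparisons were not tested.

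CDK8 was also called higher with palbociclib in HCC1806, with 219, 98, 511 and 815 counts in DMSO and 577, 448, 962 and 634 with the drug, and sums of 47.4 and 74.1 CPM. CCNC scored 1.73 with all 4 guides higher and sums of 66.1 and 86.8 CPM, and was not called. Among the other kinase genes the scores were 1.41 for MED12, 0.86 for MED12L, 0.00 for MED13, -0.24 for CDK19 and -0.49 for MED13L. CDK8 and CCNC were therefore below 0 with INX-315 and above 0 with palbociclib in this line, in separate screens with separate controls. Across the 33 members the normZ of the 2 HCC1806 screens correlated at -0.21, and across all genes at -0.02.

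In MIA PaCa-2 with palbociclib, MED25 at -2.50 was called lower and 0 members higher, where 2.65% of all genes were lower and 1.78% higher. Its guides, on chromosome 19 from 50321677 to 50332289, had 1346, 411, 284 and 1106 counts in DMSO and 755, 141, 87 and 580 with the drug. All 4 were lower, with sums of 53.5 and 37.5 CPM and a mean log2 ratio of -0.68 ± 0.36 (SD over guides). CCNC scored -1.84 with all 4 guides lower, at 322, 459, 383 and 353 counts, and a mean log2 ratio of -0.45 ± 0.22 (SD over guides). MED13 at -1.58 and MED12 at -1.35 were also below 0, and CDK8 was at 0.93.

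Since both MIA PaCa-2 drug comparisons use the same DMSO library, the drugs were also set against each other directly. MED15 at 2.84 was called higher with INX-315 than with palbociclib and 0 members lower, where 1.46% of all genes were higher and 2.9% lower. MED15 had 700, 206, 229 and 71 counts with palbociclib, close to its DMSO counts after scaling, and its sum was 28.9 CPM there and 76.4 CPM with INX-315. MED26 at -1.996 (13.3 CPM with palbociclib, 4.09 CPM with INX-315) and MED1 at 1.95 (51.0 and 97.0 CPM) lay just inside the threshold. CCNC was at -0.82 and CDK8 at 0.40 in this comparison.

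**Figure D5:**
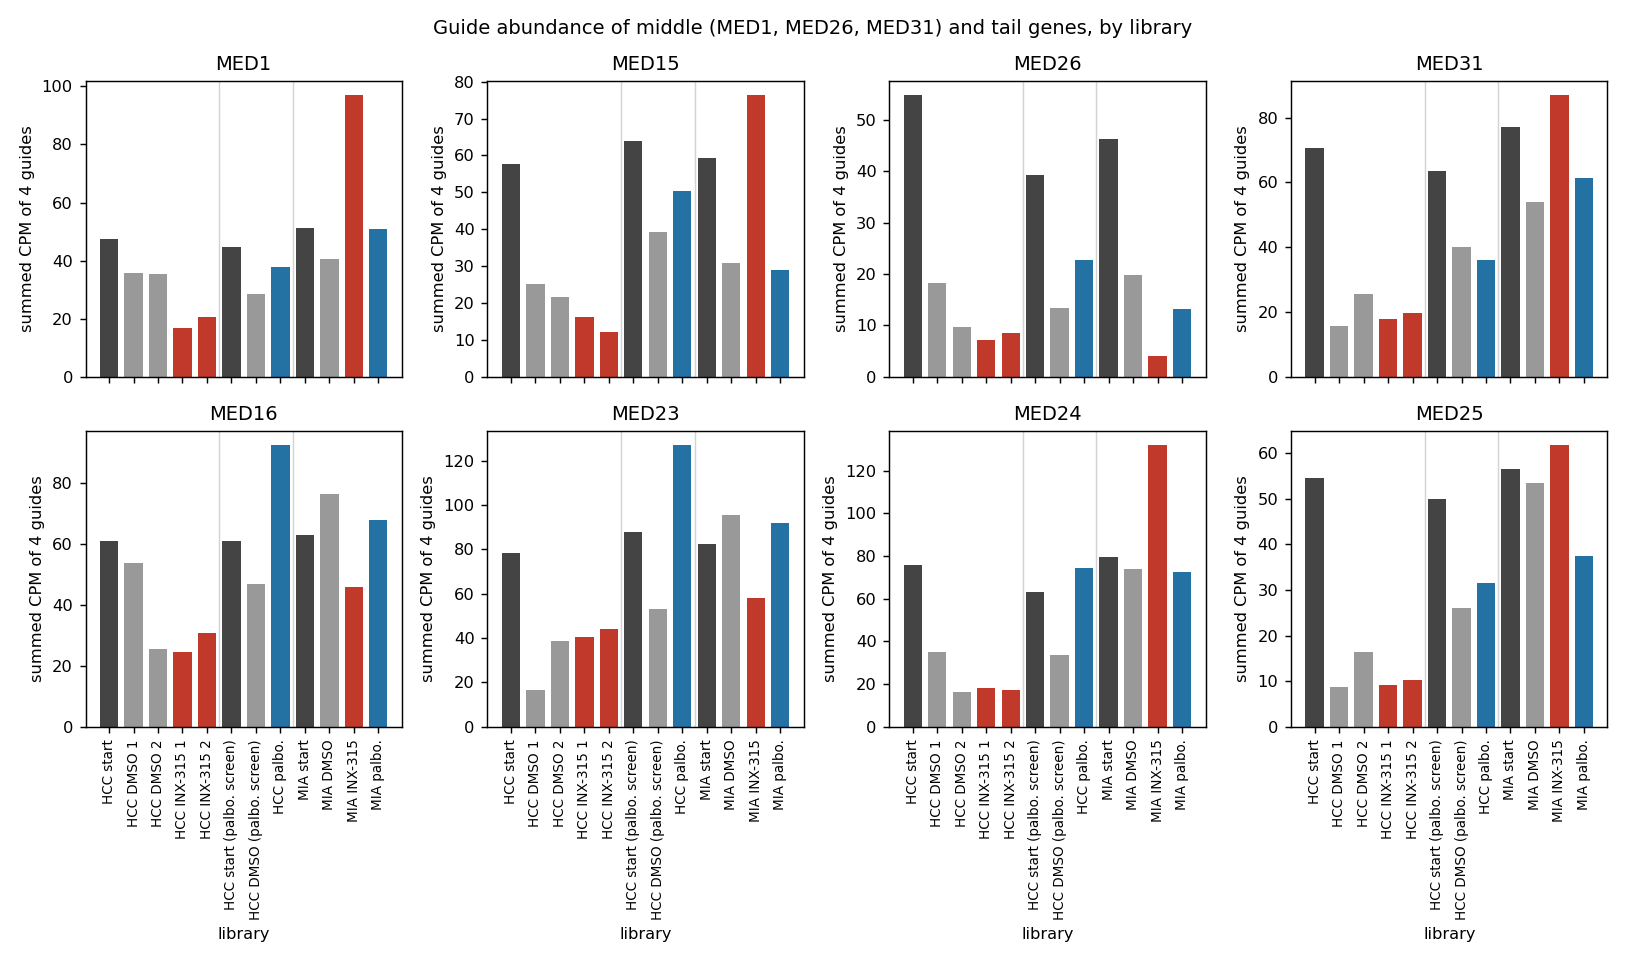
Summed CPM of the 4 guides (vertical axis, separate scale for each gene) of 3 middle and 5 tail genes in the 12 libraries, with start libraries in dark grey, DMSO in light grey, INX-315 in red and palbociclib in blue. MED1 and MED15 are lowest with INX-315 in HCC1806 and highest with it in MIA PaCa-2, and MED16, MED23 and MED24 are higher with palbociclib than with DMSO in HCC1806 and not in MIA PaCa-2.

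Of the 33 members, 11 passed the normZ threshold in at least 1 of the 4 comparisons with DMSO and 22 in none, where 15.8% of all genes passed in at least 1. These counts include DMSO 1 in the HCC1806 INX-315 screen. Without DMSO 1, MED10, MED11 and MED18 were also called lower there and MED13L was not, at -1.71. The 22 include MED14 and all 7 head genes, most of which were also lost without drug. MED14 guides had at most 30 counts in DMSO 1 and 82 in DMSO 2, which leaves little room for a lower score. In the middle, MED4, MED7, MED9, MED10, MED19 and MED21 passed in none, with scores between -1.63 for MED10 with INX-315 in HCC1806 and 1.76 for MED7 with palbociclib in HCC1806. In the tail MED27, MED28, MED29 and MED30 passed in none, with MED27 highest at 1.91 with INX-315 in MIA PaCa-2.

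Other parts of the transcription machinery are given beside Mediator. Of the 12 genes of RNA polymerase II, 11 were lost in DMSO 2, beside 13.4% of all genes. The median change from the start over the list was -3.68. Guides that low in DMSO leave little room for a lower score, so a lack of lower calls cannot show an absence of effect. With INX-315 in HCC1806, 0 of the 12 were called lower and 0 higher, where 2.77% of all genes were lower and 1.45% higher. Of 14 genes of TFIID, the promoter-binding complex, 2 were called lower in that comparison, TAF3 at -3.52 (-4.79 without DMSO 1) and TAF4 at -2.02 (-3.21 without DMSO 1). Of 9 other transcription kinases and cyclins 2 were called lower, CCNT1 (cyclin T1, the cyclin of the elongation kinase CDK9) at -7.25 (-8.41 without DMSO 1) and CDK13, an elongation kinase, at -4.92 (-5.87 without DMSO 1). Without DMSO 2 the scores were -1.66 for TAF3, -0.48 for TAF4, -4.20 for CCNT1 and -2.71 for CDK13, so the TAF3 and TAF4 calls were lost.

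With INX-315 in MIA PaCa-2 these 3 lists had 1 gene lower, CDK13 at -2.62, and 1 higher, POLR2K at 2.19. Of all genes 2.85% were lower and 1.63% higher in that comparison. With palbociclib in HCC1806 the lists had 3 lower, TAF6 at -2.82, TAF4 at -2.16 and CDK9 at -2.10, and 0 higher. There 2.54% of all genes were lower and 1.99% higher. With palbociclib in MIA PaCa-2 the lists had 1 lower, TAF1 at -2.03, where 2.65% of all genes were lower. With INX-315, CDK13 was called lower in both lines, and no Mediator gene was called in the same direction in both. The share of all genes called in the same direction in both lines was not counted, so these joint calls have no background.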

How the data were processed

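The authors trimmed the reads of TKOv3 guide amplicons and counted guides with MAGeCK 5.9, and deposited raw counts and normalized counts (a signal proportional to the raw counts within each library) for 3 screens, 12 libraries in all. The raw counts were used, and the deposited normalized signal was an alternative. DrugZ was written anew after its published steps (libraries scaled to 10000000 counts, pseudocount 5, windows of 1000 guides moved by 25, replicates paired by number), in Python 3.11.15 with pandas 2.3.3, and 142 non-targeting guides were left out of gene counts. Gene sums were tested with edgeR 4.0.16 (TMM, filterByExpr, Benjamini-Hochberg adjustment) and DESeq2 1.42.0. Changes from the start used log2(CPM + 0.5). The scoring and both count tests were tested on simulated data.

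The members, modules and comparison lists were chosen with earlier results of these data known. MED19, MED26 and MED27 to MED30 are placed in different modules by different structures. Values are printed for members past a normZ of 2 in either direction in a comparison with DMSO (guide counts of the compared libraries, with sums in every library in a plot for 8 middle and tail genes), for the whole kinase module, and for the extremes of the other modules. TAF, POLR2 and CDK genes outside Mediator were named because they passed the threshold. Guide sequences were not used here, and guide coordinates are those of the library's names, without a stated build, so no exon was assigned. Other alternatives were other pseudocounts, a count minimum of 30, scaling on olfactory receptor guides, a normZ of 3, RLE size factors and no filter. Libraries of the HCC1806 INX-315 screen were also left out. For edgeR within HCC1806 this was each library in turn, for the difference between lines each DMSO library, and for DrugZ each replicate or DMSO library.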

Additional observations from a re-analysis of the deposited data

Results flagged for a closer look

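MED1 and MED15 were called in opposite directions by the same contrast in the 2 lines. With INX-315 against DMSO, MED1 had a normZ of -2.76 (HCC1806) and 2.35 (MIA PaCa-2), and MED15 of -2.23 (HCC1806) and 2.74 (MIA PaCa-2). The summed guides of both genes were lower in each of the 2 HCC1806 INX-315 libraries than in each DMSO library, and higher in the single MIA PaCa-2 INX-315 library than in its DMSO library. In edgeR the difference between lines was -2.34 (SE 0.49, edgeR adjusted p = 0.948) for MED1 and -2.19 (SE 0.62, edgeR adjusted p = 0.948) for MED15 on the log2 scale, so neither passed after adjustment. Without HCC1806 DMSO 1 the differences were -2.21 for MED1 and -1.94 for MED15. No p is given for that fit, since its spread is estimated from the 2 INX-315 libraries of HCC1806 alone. MED1 and MED15 were flagged for their opposite calls, so sums and differences from the same counts are not separate support. Line and screen cannot be told apart.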

How the results depend on the processing

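The HCC1806 INX-315 calls depended on the DMSO libraries. By DrugZ 5 members were lower, with 2 to 7 when a replicate or library was left out (2, CDK8 and MED1, without DMSO 2) and 2 (CDK8 and CCNC) at a normZ of 3. By DrugZ adjusted p 2 were lower, with 0 to 2 when a replicate or library was left out. By edgeR 0 were lower and 0 higher, with 0 to 14 lower and 0 to 11 higher when a library was left out (9 and 0 without DMSO 1, 14 and 11 without DMSO 2, where 6580 and 6706 of 18028 genes were called), and DESeq2 gave 1 lower. For the difference between lines edgeR gave 0, with 0 to 11 lower and 0 to 8 higher when a library was left out (11 and 3 without DMSO 1, where 3021 and 3160 of 18050 genes were called, and 10 and 8 without DMSO 2, where 5604 and 5952 were called).

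At a normZ of 3 the INX-315 count in MIA PaCa-2 was 0 lower and 0 higher, the palbociclib count was 1 higher in HCC1806 (MED23) and 0 lower in MIA PaCa-2, and the direct comparison of drugs had 0 higher. That comparison had 1 lower (MED26) with a pseudocount of 1 and with the deposited normalized counts, and 2 higher (MED1 and MED15) with a pseudocount of 20. Of all the recomputed counts 113 were equal, 0 against 0 included, or within 1.5 times, and 21 moved further. Of 100 recomputed scores of called genes 10 fell inside the threshold (CCNC, MED13L and MED15 in HCC1806 with INX-315) and 0 changed sign.

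The replicate numbers of HCC1806 are not said to mark a shared culture, and the deviations of same-numbered DMSO and INX-315 libraries correlated at -0.02 across 17725 genes. With a replicate block edgeR called 0 members lower and 0 higher (7 and 0 of all genes), and DrugZ with no replicate block called 5 lower, with MED12 (-2.55) in and MED15 (-1.81) out. MED12 also passed with a pseudocount of 1 (-2.24) and the deposited normalized counts (-2.18), and scored 0.15 with a minimum of 30 control counts. Single libraries of MIA PaCa-2 and of the HCC1806 palbociclib screen give no error between libraries.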
